A study of Mus musculus with 6 samples.

Results

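The genes described here are 34 named genes of the lysosome and of autophagy, followed in mouse C2C12 myotubes. They comprise 20 genes for lysosomal enzymes and membrane or luminal proteins, 13 autophagy genes and Tfeb, which encodes a transcription factor for both sets. The members are a list of gene names, drawn up with earlier results of these data known, and a member needed a probe set tied to 1 gene symbol. All 34 had one, of 19938 genes named on the array, and a gene with several probe sets is given by the one with the highest mean.

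The study asked how knockdown of perilipin 2 (Plin2), a protein that coats lipid droplets, changes gene expression in muscle cells given fatty acids. C2C12 is a mouse myoblast line whose cells fuse into myotubes when serum is lowered, here with 2% serum after growth in 10% serum. Of the 6 arrays, 3 came from cells transfected with Plin2 siRNA and 3 from cells transfected with scrambled siRNA, and each set had 1 array for oleate, 1 for palmitate and 1 for BSA alone. All cells of the 6 arrays carried 10 nM Stealth siRNA delivered with Lipofectamine RNAiMAX, and all received albumin (BSA), the fatty acid carrier. The fatty acids were given at 200 µM for 20 h, with 2.5 fatty acid molecules per BSA. The model is 1 cell line, and the labels name neither the siRNA sequences nor a second Plin2 siRNA.

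Lysosomes are acid compartments in which hydrolases break down proteins, glycans, glycogen and lipids. Autophagy delivers cytoplasm to them in a double membrane, the autophagosome, which is started by a kinase complex, shaped by a lipid kinase complex and extended by small ubiquitin-like proteins of the ATG8 family. In cells with lipid droplets this route can also deliver droplet fat to lysosomal acid lipase, and perilipin 2 is itself a known client of chaperone-mediated autophagy. TFEB switches on many of these genes through a short promoter element with the core CACGTG.

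Values are deposited log2 expression values, with 1 value per probe set and array. Plin2 was 7.63 (oleate), 7.45 (palmitate) and 6.95 (BSA) with Plin2 siRNA, against 10.03, 10.10 and 9.29 in the same order with scrambled siRNA. That is a log2 change of -2.47 (SE 0.08, limma adjusted p = 2.3e-08), and Plin2 was lower in each pair of arrays. Array medians lay between 4.94 and 5.02. Myotube markers averaged 11.28 to 11.33 over the arrays with Plin2 siRNA and 11.30 to 11.60 over those with scrambled siRNA, and 0 of the 12 lay in the dimmest 33.3% of probe sets. Macrophage markers, which matter here because macrophages are rich in lysosomes, averaged 4.11 to 4.17 with Plin2 siRNA and 4.14 to 4.32 with scrambled siRNA, and 7 of the 12 lay below 4.49, the limit of that dimmest share. The list of osteoclast markers averaged 4.85 to 5.02 with Plin2 siRNA and 4.87 to 5.02 with scrambled siRNA. Among the members, the cathepsins Ctsk (mean 3.79) and Ctss (mean 3.66) lay below the same limit, and the other 32 lay above it.

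Plin2 siRNA changed single genes of both classes in both directions, with no common direction in either class. Among lysosomal genes the glycan-cleaving enzymes Hexa and Glb1 fell and the glycogen-cleaving enzyme Gaa rose. Among autophagy genes Map1lc3b, Atg12 and Wipi1 rose, while Becn1, Bnip3l and Gabarapl1 fell. The log2 changes of these 9 genes ran between -0.49 and 0.35.

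A gene was called when its limma p, adjusted by Benjamini-Hochberg over all 21789 named probe sets, was under 0.05. In all, 9 of 34 members were called (26.5%), 4 of them higher and 5 lower, against 17.1% of all named probe sets, 8.5% higher and 8.58% lower. Among probe sets above the dimmest 33.3% the share called was 24.7%, so the members' share was near that background. The classes differed in count in this fit. Of 13 autophagy members 6 were called (46.2%), 3 in each direction. Of 20 lysosomal members 3 were called (15%), 1 higher and 2 lower. The class counts varied with the fit. Without the intensity trend 1 autophagy and 2 lysosomal members were called, and with the unnamed probe sets fitted too 2 and 2. Without either BSA array the counts were 3 and 1. The median log2 change was -0.12 for the autophagy members and -0.02 for the lysosomal members, beside 0.00 for all named genes. In the single BSA pair the autophagy and lysosomal medians were -0.11 and -0.03. They were -0.05 and -0.06 in the oleate pair, and -0.01 and -0.01 in the palmitate pair. The median size of the change, sign ignored, was 0.17 for autophagy members and 0.11 for lysosomal members, beside 0.12 for all named genes. The values of the Plin2 siRNA and scrambled siRNA arrays did not overlap in 9 of 13 autophagy members (69.2%) and in 7 of 20 lysosomal members (35%). The share was 30.3% of all named probe sets. That share includes the dimmest 33.3%, where only Ctsk and Ctss of the members lay, and it was not computed for brighter probe sets alone.

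Each siRNA change rests on 3 pairs of arrays, 1 pair per treatment, with no replicate of any condition. Left out in turn, either BSA array reduced the 9 calls to 4 (Atg12, Hexa, Map1lc3b and Wipi1). A fit without the intensity trend left 3 (Becn1, Glb1 and Hexa). The background fell as well: these fits called 10.2% and 11% of all named probe sets, against 17.1% in the main fit. Myoblast markers averaged 8.20 to 8.29 with Plin2 siRNA and 7.93 to 8.12 with scrambled siRNA, with 4 of 9 called higher and 1 lower. Of 12 myotube markers, 1 was called higher and 7 lower. The part of this shift in the members' changes was not tested. In these bulk RNA samples fewer cells of a type and less RNA per cell cannot be told apart.

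**Figure D1:**
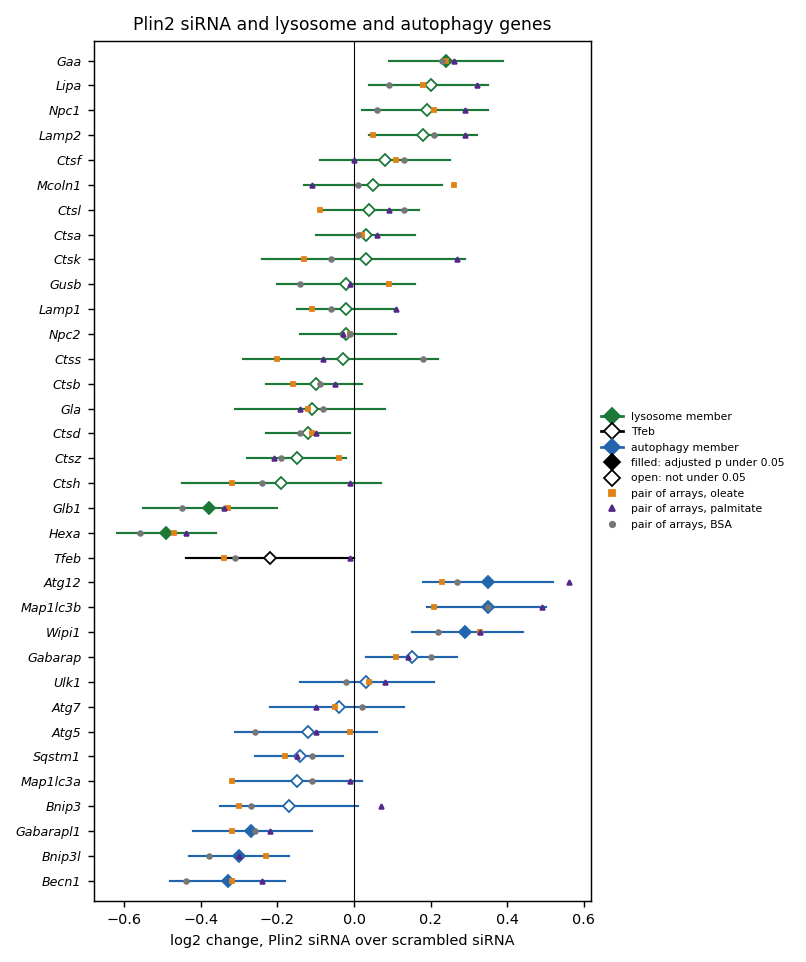
Fitted log2 change of each of the 34 members, Plin2 siRNA over scrambled siRNA, with its 95% confidence interval (line) and the 3 single pairs of arrays (small symbols). Filled diamonds mark the 9 members called by limma, and the changes run from -0.49 for Hexa to 0.35 for Atg12 and Map1lc3b.

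Hexa, the alpha subunit of beta-hexosaminidase, which degrades gangliosides, had the largest siRNA change among the 34 genes. Its level was 10.64 (oleate), 10.33 (palmitate) and 10.36 (BSA) with Plin2 siRNA, against 11.11, 10.77 and 10.92 with scrambled siRNA. All 3 values with Plin2 siRNA lay below all 3 with scrambled siRNA. The log2 change was -0.49 (SE 0.06, limma adjusted p = 0.00017), or 0.71 times the level in scrambled cells, and it was called in each of the 10 distinct alternative fits.

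Glb1, the lysosomal beta-galactosidase, was 7.64, 7.60 and 7.45 in oleate, palmitate and BSA with Plin2 siRNA, against 7.97, 7.94 and 7.91 with scrambled siRNA. The groups did not overlap, and the log2 change was -0.38 (SE 0.08, limma adjusted p = 0.0065). Gaa, the acid alpha-glucosidase that degrades glycogen in the lysosome and is deficient in Pompe disease, went the other way. It was 8.75, 8.67 and 8.77 with Plin2 siRNA, against 8.52, 8.41 and 8.54 with scrambled siRNA. Its pair differences were close to one another (0.23, 0.24 and 0.26), and the log2 change was 0.24 (SE 0.07, limma adjusted p = 0.033). That call was lost in 6 of the 10 distinct alternative fits, with an adjusted p of at most 0.18.

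Lipa, the acid lipase that hydrolyses triglyceride and cholesteryl ester in the lysosome, is the member that acts on droplet fat. Its level was 9.18 (oleate), 9.06 (palmitate) and 9.01 (BSA) with Plin2 siRNA, against 9.00, 8.74 and 8.91 with scrambled siRNA. The groups did not overlap, with pair differences of 0.18 in oleate, 0.32 in palmitate and 0.09 in BSA, but the log2 change of 0.20 (SE 0.07) had a limma adjusted p of 0.091. The remaining glycosidases were not called either: Gla, the alpha-galactosidase deficient in Fabry disease, had a change of -0.11 (adjusted p = 0.48), and Gusb, the beta-glucuronidase, had one of -0.02 (adjusted p = 0.93).

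None of the 9 cathepsins among the members was called, though cathepsins are the main lysosomal proteases. Cathepsin C (Ctsc), on the list of other hydrolases given below, was called higher. The aspartic protease Ctsd was 12.53, 12.38 and 12.40 in oleate, palmitate and BSA with Plin2 siRNA, against 12.64, 12.48 and 12.53 with scrambled siRNA, a change of -0.12 (adjusted p = 0.16 by limma). The cysteine proteases Ctsz (-0.15, adjusted p = 0.13), Ctsh (-0.19, adjusted p = 0.36) and Ctsb (-0.10, adjusted p = 0.29) also had negative estimates. Estimates for the cysteine proteases Ctsl (0.04) and Ctsf (0.08) and for Ctsa (0.03), a serine carboxypeptidase that also stabilises the Glb1 enzyme, were above 0, with adjusted p from 0.60 to 0.84. Ctsk (0.03) and Ctss (-0.03), the pair with signal among the dimmest 33.3%, had adjusted p of 0.94 and 0.92. Only Ctsz, among these 9 genes, had all 3 values with Plin2 siRNA below all 3 with scrambled siRNA.

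The 5 members for membrane proteins and sterol export had no call. Lamp2, a major membrane glycoprotein whose LAMP2A form is the receptor of chaperone-mediated autophagy, was 10.86 (oleate), 10.82 (palmitate) and 10.76 (BSA) with Plin2 siRNA, against 10.82, 10.53 and 10.54 with scrambled siRNA. LAMP2 isoforms were not separated here. The groups overlapped, with scrambled cells in oleate inside the range of the Plin2 siRNA cells, and the log2 change was 0.18 (SE 0.06, limma adjusted p = 0.079). Without either oleate array it was 0.25 (adjusted p = 0.012 and 0.013, 1 value per array left out) and was called. It was called with no other array left out. The oleate pair had the smallest difference, so leaving it out enlarges the estimate by construction and adds no support. Npc1, the membrane protein that exports cholesterol, was 8.66, 8.56 and 8.55 with Plin2 siRNA, against 8.44, 8.27 and 8.49 with scrambled siRNA. These did not overlap, but the change of 0.19 (SE 0.08) had an adjusted p of 0.13. Its luminal partner Npc2 had a change of -0.02, the membrane glycoprotein Lamp1 one of -0.02 and the calcium channel Mcoln1 one of 0.05 (adjusted p from 0.79 to 0.92).

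Tfeb was 6.68 (oleate), 6.73 (palmitate) and 6.80 (BSA) with Plin2 siRNA, against 7.02, 6.74 and 7.11 with scrambled siRNA. The palmitate pair was level, with a difference of -0.01, while the BSA and oleate pairs had differences of -0.31 and -0.34. The fitted log2 change was -0.22 (SE 0.10, limma adjusted p = 0.17). Without either palmitate array it was -0.33 (adjusted p = 0.049) and was called, but with no other array left out. Leaving out the pair nearest to level enlarges the estimate by construction, so this call adds no support.

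Among the genes that start the autophagosome, Becn1 fell and Wipi1 rose. Becn1 encodes beclin, a core part of the lipid kinase complex that makes the phosphoinositide of the new membrane. It was 9.34 (oleate), 9.29 (palmitate) and 9.28 (BSA) with Plin2 siRNA, against 9.67, 9.53 and 9.71 with scrambled siRNA. The Plin2 siRNA arrays were all lower, by a log2 change of -0.33 (SE 0.07, limma adjusted p = 0.0053). Wipi1, which binds that phosphoinositide, was 9.73, 9.59 and 9.61 with Plin2 siRNA, against 9.40, 9.26 and 9.39 with scrambled siRNA. Its Plin2 siRNA arrays were all higher, by 0.29 (SE 0.06, adjusted p = 0.0087). Ulk1, the kinase that starts the process, had a change of 0.03 (adjusted p = 0.88).

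In the conjugation system that attaches ATG8 proteins to lipid, only Atg12 was called. Atg12, the ubiquitin-like partner of Atg5, was 9.45 (oleate), 9.66 (palmitate) and 9.47 (BSA) with Plin2 siRNA, against 9.22, 9.11 and 9.19 with scrambled siRNA. It rose by 0.35 (SE 0.08, limma adjusted p = 0.0083), and its palmitate pair (0.56) differed more than its BSA pair (0.27) or its oleate pair (0.23). Atg5 had a change of -0.12 (adjusted p = 0.41), and Atg7, the activating enzyme of the system, one of -0.04 (adjusted p = 0.83).

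The ATG8 family, whose lipid-bound forms coat the autophagosome, did not move as a group. Map1lc3b, the gene of the LC3 protein used as an autophagosome marker, was 9.90 (oleate), 10.09 (palmitate) and 10.00 (BSA) with Plin2 siRNA, against 9.70, 9.60 and 9.65 with scrambled siRNA. It rose by 0.35 with no overlap (SE 0.07, limma adjusted p = 0.0051). A second Map1lc3b probe set gave 0.25 (SE 0.08, adjusted p = 0.046). Gabarapl1 was 8.24, 8.52 and 8.32 with Plin2 siRNA, against 8.57, 8.74 and 8.58 with scrambled siRNA. It fell by 0.27 on the log2 scale (SE 0.07, adjusted p = 0.023), a call lost in 5 of the 10 distinct alternative fits. Both remaining family members missed the threshold. Gabarap was 11.64, 11.53 and 11.58 with Plin2 siRNA, against 11.53, 11.39 and 11.38 with scrambled siRNA, a change of 0.15 (adjusted p = 0.082) with no overlap. Map1lc3a was 9.17, 9.56 and 9.56 with Plin2 siRNA, against 9.49, 9.57 and 9.67 with scrambled siRNA, a change of -0.15 (adjusted p = 0.23).

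Of the cargo receptors, the mitochondrial receptor Bnip3l fell. Its level was 10.56 (oleate), 10.45 (palmitate) and 10.38 (BSA) with Plin2 siRNA, against 10.79, 10.75 and 10.75 with scrambled siRNA. The groups did not overlap, the log2 change was -0.30 (SE 0.06, limma adjusted p = 0.0047), and a second probe set gave -0.30 (adjusted p = 0.0043). Bnip3, its relative, was 9.16, 9.14 and 9.11 with Plin2 siRNA, against 9.46, 9.07 and 9.38 with scrambled siRNA. The palmitate pair went against the other pairs, and the change of -0.17 had an adjusted p of 0.22. Without either palmitate array it was -0.28 (adjusted p = 0.021 and 0.022, 1 value per array left out). Leaving out the pair that opposes the others enlarges the estimate by construction, so this adds no support. With no other array left out was this probe set called. A second Bnip3 probe set had pair differences of -0.02 in oleate, -0.25 in palmitate and -0.57 in BSA, and a change of -0.28 (SE 0.10, adjusted p = 0.077), so the probe sets disagreed on the palmitate pair. Sqstm1, the p62 receptor of ubiquitinated cargo, was 11.56, 11.66 and 11.57 with Plin2 siRNA, against 11.73, 11.81 and 11.68 with scrambled siRNA. Its values did not overlap, but the change of -0.14 (SE 0.05) had an adjusted p of 0.096.

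**Figure D2:**
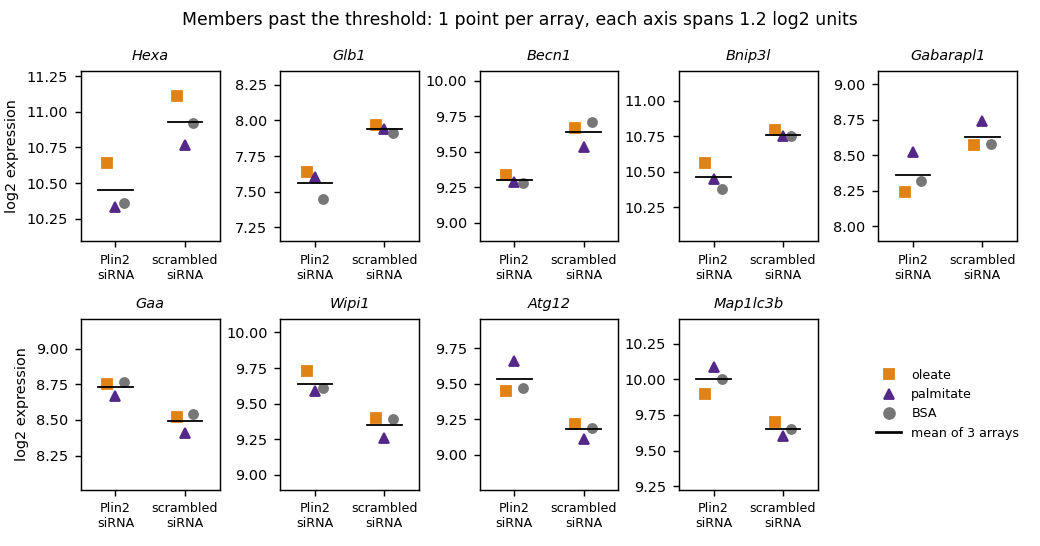
Log2 expression of the 9 called members on each of the 6 arrays, Plin2 siRNA left and scrambled siRNA right, with symbols for the treatments and a line at the mean of 3 arrays. In each of the 9 panels the 3 Plin2 siRNA points lie on one side of the 3 scrambled points.

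**Figure D3:**
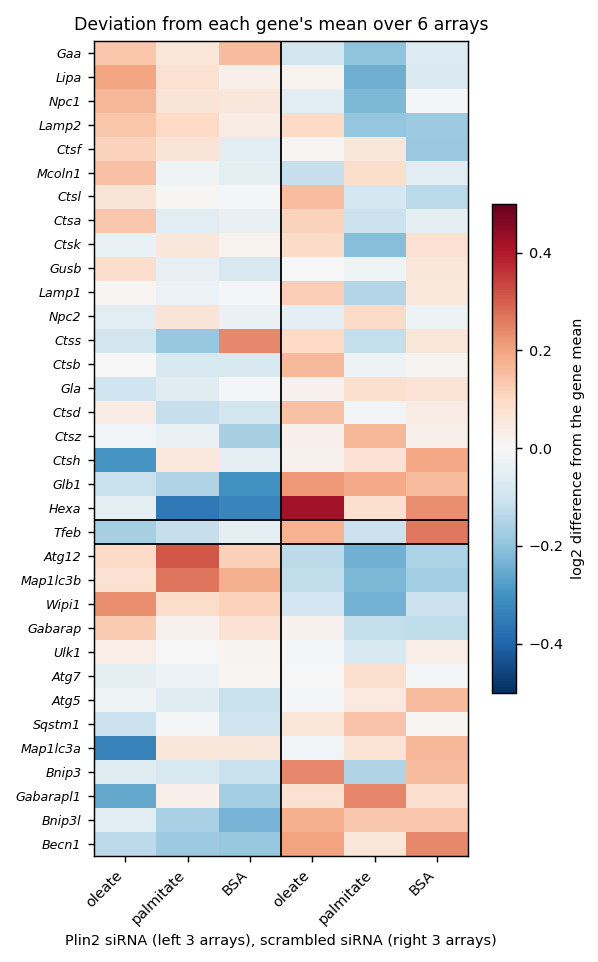
Log2 deviation of each member from its own mean over the 6 arrays, with the Plin2 siRNA arrays left and the scrambled siRNA arrays right; lysosomal members are on top, then Tfeb, then autophagy members. Rows at the edges of each block, such as Hexa, Gaa, Atg12 and Becn1, differ between the left and right sides of the map.

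Promoter sequences were examined because TFEB acts through CACGTG, and RefSeq windows (GRCm38.p6, 250 bases before to 50 after a transcript start) were at hand for 27 of the 34 members. The capitals mark CACGTG, which reads the same on both strands. Lamp1 is shown for its 4 copies, and Ctsa and Ctsd for copies in the full palindrome TCACGTGA. Glb1 and Gaa are shown as the called members with the motif, and Bnip3 as an autophagy member with it. A gene with several windows was counted if any window held the motif, for members and all genes alike. The Ctsa window shown was picked for the motif, and the other Ctsa window held 0 copies of CACGTG.
Lamp1 (chr8:13158911-13159210, plus strand): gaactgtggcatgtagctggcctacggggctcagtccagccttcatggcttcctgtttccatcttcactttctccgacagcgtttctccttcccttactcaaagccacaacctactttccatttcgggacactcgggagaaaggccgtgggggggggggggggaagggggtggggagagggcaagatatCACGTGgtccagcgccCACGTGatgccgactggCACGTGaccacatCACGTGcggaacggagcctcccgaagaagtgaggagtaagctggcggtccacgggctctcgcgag
Ctsa (chr2:164833523-164833822, plus strand): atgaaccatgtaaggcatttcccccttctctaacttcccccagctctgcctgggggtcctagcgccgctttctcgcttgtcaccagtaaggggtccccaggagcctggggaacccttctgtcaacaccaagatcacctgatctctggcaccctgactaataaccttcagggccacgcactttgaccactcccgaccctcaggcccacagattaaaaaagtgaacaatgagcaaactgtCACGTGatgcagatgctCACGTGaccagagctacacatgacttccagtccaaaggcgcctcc
Ctsd (chr7:142387778-142388077, minus strand): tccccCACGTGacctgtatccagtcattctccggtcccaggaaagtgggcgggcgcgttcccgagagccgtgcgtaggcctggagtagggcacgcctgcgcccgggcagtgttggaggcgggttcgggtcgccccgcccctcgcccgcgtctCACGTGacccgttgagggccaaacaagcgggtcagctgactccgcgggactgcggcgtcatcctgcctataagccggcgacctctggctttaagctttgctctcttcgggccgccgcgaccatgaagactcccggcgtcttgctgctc
Glb1 (chr9:114400828-114401127, plus strand): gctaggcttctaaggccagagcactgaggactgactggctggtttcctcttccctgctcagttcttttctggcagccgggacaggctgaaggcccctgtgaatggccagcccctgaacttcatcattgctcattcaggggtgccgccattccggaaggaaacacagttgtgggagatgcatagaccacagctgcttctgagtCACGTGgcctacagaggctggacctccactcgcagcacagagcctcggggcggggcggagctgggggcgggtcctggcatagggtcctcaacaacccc
Gaa (chr11:119267713-119268012, plus strand): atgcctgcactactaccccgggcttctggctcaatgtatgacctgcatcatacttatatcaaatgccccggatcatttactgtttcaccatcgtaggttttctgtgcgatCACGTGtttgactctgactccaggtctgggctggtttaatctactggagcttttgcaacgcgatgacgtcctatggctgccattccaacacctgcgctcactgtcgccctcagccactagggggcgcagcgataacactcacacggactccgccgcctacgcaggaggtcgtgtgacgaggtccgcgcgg
Bnip3 (chr7:138909457-138909756, minus strand): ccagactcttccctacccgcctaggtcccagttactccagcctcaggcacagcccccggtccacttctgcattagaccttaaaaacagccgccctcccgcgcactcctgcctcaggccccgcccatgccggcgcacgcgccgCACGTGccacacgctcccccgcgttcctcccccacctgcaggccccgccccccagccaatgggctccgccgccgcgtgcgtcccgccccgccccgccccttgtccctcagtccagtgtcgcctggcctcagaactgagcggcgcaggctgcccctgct

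CACGTG stood in the windows of 9 of 17 lysosomal members (52.9%) and 3 of 9 autophagy members (33.3%), against 8.09% of all 27025 genes with a window. The lysosomal genes with it were Ctsa, Ctsd, Mcoln1, Lamp1, Glb1, Gaa, Ctsl, Ctsf and Gla, and the autophagy genes were Atg5, Atg7 and Bnip3. In Lamp1 the copies began 61, 45, 28 and 15 bases before the start. The palindrome TCACGTGA, which contains CACGTG, was found in 4 lysosomal members (Ctsa, Ctsd, Mcoln1 and Gla), 0 of 9 autophagy members and 1.12% of all genes. The shorter ACGTG, the core of the hypoxia response element and also a part of CACGTG, was in 9 of 17 lysosomal and 4 of 9 autophagy members, against 21.8% of all genes. TGTTTAC, a binding sequence of FoxO factors, was found in 0 of the 27 members with a window and in 4.05% of all genes; both strands were read for each motif.

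Called members with a window stood on both sides of the motif, and the called members Atg12, Becn1 and Bnip3l had no window. Of the 12 members with CACGTG, 2 were called with Plin2 siRNA, Gaa higher and Glb1 lower, and the median log2 change was -0.03. Of the 15 members with a window but no CACGTG, 4 were called (Hexa, Gabarapl1, Map1lc3b and Wipi1), and the median change was -0.02.

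Other genes of the same pathways, taken from lists written from textbook knowledge, held more rises than falls with Plin2 siRNA. Of 177 measured genes on 7 lists, 44 were called higher and 19 lower (35.6% called), against 17.1% of all named probe sets and 24.7% of those above the dimmest 33.3%. By list the share called was 21.6% for other core autophagy genes, 29% for other hydrolases and 29.4% for other receptors, near the background of brighter probe sets. It was 33.3% for the vacuolar ATPase, 41.7% for FoxO and atrophy genes, 46.9% for nutrient sensing and 50% for membrane and trafficking genes. Without either BSA array the pooled counts were 23 higher and 12 lower, and without the Plin2 siRNA palmitate array 29 and 20. Without the intensity trend they were 21 and 12, with the unnamed probe sets fitted too 18 and 11, and with centred arrays 29 and 19. In the same order these 5 fits called 10.2%, 15.1%, 11%, 7.68% and 14.7% of all named probe sets. The lists were written with earlier results of these data known, so their counts are descriptions.

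The vacuolar ATPase, the proton pump that acidifies the lysosome, had 6 of 18 measured subunits called higher (33.3%) and 0 lower. Atp6v1f, of the cytosolic sector, was 9.87 (oleate), 10.01 (palmitate) and 9.87 (BSA) with Plin2 siRNA, against 9.48, 9.31 and 9.31 with scrambled siRNA, a rise of 0.55 (SE 0.07, limma adjusted p = 0.00031). Atp6v0d1, of the membrane sector, rose by 0.51 (adjusted p = 0.00047), and Atp6v1b2, of the cytosolic sector, by 0.45 (adjusted p = 0.00041). In these 3 genes the arrays of the siRNAs did not overlap. Over the alternatives 4 to 7 subunits were called higher, and 1 was called lower when an oleate or a palmitate array was left out.

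Other lysosomal membrane and trafficking genes had 10 of 30 called higher and 5 lower. Vps41 and Vps39, subunits of the HOPS complex that tethers vesicles to the lysosome, moved apart. Vps41 was 10.44, 10.54 and 10.48 in oleate, palmitate and BSA with Plin2 siRNA, against 9.86, 9.89 and 9.92 with scrambled siRNA, a rise of 0.60 (SE 0.06, limma adjusted p = 4.9e-05). Vps39 was 8.19, 8.21 and 8.18 with Plin2 siRNA, against 8.61, 8.55 and 8.64 with scrambled siRNA, and fell by 0.41 (SE 0.07, adjusted p = 0.0025). The transmembrane proteins Laptm4b (0.48, adjusted p = 0.0002) and Laptm4a (-0.56, adjusted p = 2.4e-05) likewise moved apart. Gnptab, whose enzyme makes the mannose phosphate tag that sends hydrolases to lysosomes, rose by 0.48 (adjusted p = 0.0022). Cln8, which helps newly made lysosomal enzymes leave the endoplasmic reticulum, was 8.07, 8.16 and 7.93 with Plin2 siRNA, against 8.87, 8.90 and 8.80 with scrambled siRNA, and fell by 0.80 (SE 0.07, adjusted p = 2.2e-05). Either BSA array left out reduced these counts to 6 higher and 4 lower.

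Other hydrolases and activators had 7 of 31 called higher and 2 lower. The dipeptidyl peptidase Ctsc, which is cathepsin C, rose (0.46, limma adjusted p = 0.016). So did the thioesterase Ppt2 (0.33, adjusted p = 0.049) and the acid ceramidase Asah1 (0.33, adjusted p = 0.0044). The sialidase Neu1, which works in a complex with the Glb1 and Ctsa enzymes, was 7.23, 7.25 and 7.38 in oleate, palmitate and BSA with Plin2 siRNA, against 7.87, 7.58 and 7.73 with scrambled siRNA, and fell by 0.44 (SE 0.09, adjusted p = 0.0058). The carboxypeptidase-like Scpep1 fell by 0.28 (adjusted p = 0.0065). Without the intensity trend 1 gene of the list was called higher and 1 lower, without either BSA array 2 higher and 1 lower, and without either palmitate array 1 higher and 3 lower.

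The list of the TFEB family, mTORC1 and nutrient sensing had 9 of 32 called higher and 6 lower. Mitf, a TFEB relative, was 6.46, 6.27 and 6.42 in oleate, palmitate and BSA with Plin2 siRNA, against 7.04, 6.65 and 6.95 with scrambled siRNA, and fell by 0.50 (SE 0.09, limma adjusted p = 0.0037). The relatives Tfe3 (-0.12, adjusted p = 0.50) and Tfec (0.07, adjusted p = 0.79) were not called. Rag GTPases, which bring mTORC1 to the lysosome, moved in both directions: Rragd (0.68, adjusted p = 0.001) and Rraga (0.51, adjusted p = 0.00032) rose, and Rragc (-0.43, adjusted p = 0.00077) fell. Prkaa2, a catalytic subunit of the energy sensor AMPK, rose by 1.08 (adjusted p = 6.7e-06). Ddit4, an mTORC1 inhibitor, was 6.80, 6.80 and 7.06 with Plin2 siRNA, against 6.81, 7.69 and 7.82 with scrambled siRNA. It was called lower (-0.56, adjusted p = 0.02), though its oleate pair was level. Either BSA array left out reduced the list's counts to 4 higher and 3 lower, and without the trend they were 4 and 2.

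Other core autophagy genes had 6 of 37 called higher and 2 lower. The list also holds regulators outside the core machinery, such as Bcl2l1, which is among the genes called higher. Bcl2l1, whose product Bcl-xL binds beclin, was 9.15, 8.97 and 9.18 in oleate, palmitate and BSA with Plin2 siRNA, against 8.53, 8.34 and 8.46 with scrambled siRNA, a rise of 0.66 (SE 0.07, limma adjusted p = 6.6e-05). Rubcn, which restrains the lipid kinase complex, was 7.80, 7.64 and 7.77 with Plin2 siRNA, against 8.22, 8.19 and 8.39 with scrambled siRNA, and fell by 0.53 (SE 0.08, adjusted p = 0.00071). Atg4d, a protease that processes ATG8 proteins (0.39, adjusted p = 0.011), and Wdr45b, a relative of Wipi1 (0.34, adjusted p = 0.0047), rose, and Atg9b, of the membrane protein family that feeds the growing autophagosome, fell (-0.44, adjusted p = 0.028). Among the other cargo and mitophagy receptors 2 of 17 were called higher and 3 lower. Phb2 of the inner mitochondrial membrane (0.27, adjusted p = 0.017) and the adaptor Tollip (0.26, adjusted p = 0.023) rose. The ferritin receptor Ncoa4 (-0.49, adjusted p = 0.00069), the endoplasmic reticulum receptor Tex264 (-0.42, adjusted p = 0.0019) and the ubiquitin-binding Nbr1 (-0.27, adjusted p = 0.019) fell. Without either BSA array, or either palmitate array, the core list had 3 higher and 1 lower. The receptors had 0 higher and 2 lower without either BSA array.

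**Figure D4:**
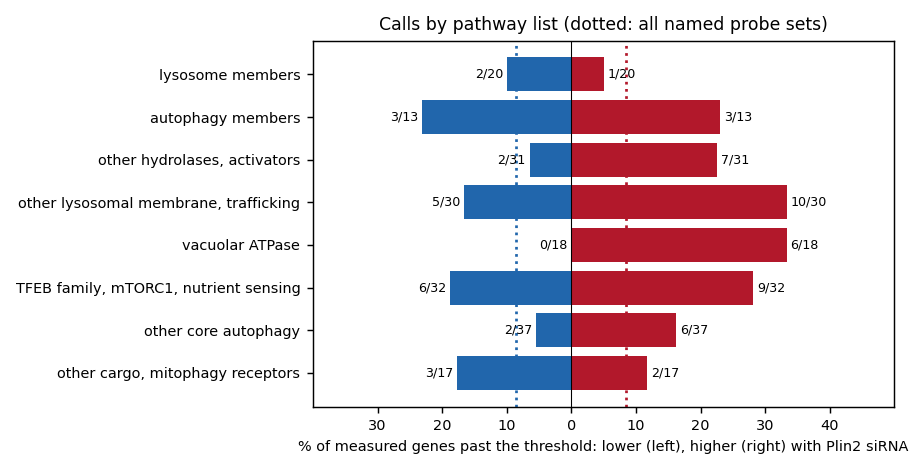
Percentage of the measured genes of each list called lower (left bars) or higher (right bars) with Plin2 siRNA relative to scrambled siRNA by limma, with counts beside the bars and dotted lines at the shares of all named probe sets (8.58% lower, 8.5% higher). The vacuolar ATPase has 6 of 18 genes higher and 0 lower, and the autophagy members have 3 of 13 in each direction.

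The next comparisons asked whether fatty acids changed the same genes. With oleate 0 of 34 members were called by limma, against 0.0734% of all named probe sets, and 5 had an unadjusted p under 0.05. With palmitate against BSA 0 were called, against 0.00918%, and 0 had an unadjusted p under 0.05. Palmitate against oleate gave 0 calls, against 0.262%, and 6 unadjusted. In each of the 7 pathway lists 0 genes were called in these comparisons. The oleate and palmitate comparisons share the BSA arrays, and each rests on 2 pairs of arrays, 1 per siRNA.

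In oleate against BSA the median log2 change was 0.07 over the lysosomal members, with 14 of 20 above 0, and 0.01 over the autophagy members, beside -0.02 for all named genes. The largest changes among members were those of Map1lc3a (-0.28, SE 0.09, limma adjusted p = 0.55), Hexa (0.24, SE 0.07, adjusted p = 0.51) and Ctsh (-0.21, adjusted p = 0.89). Map1lc3a was lowest in oleate under both siRNAs. In palmitate against BSA the median was -0.02 in both classes, and the largest changes were those of Ctss (-0.31, adjusted p = 0.94), Tfeb (-0.22, adjusted p = 0.95) and Ctsf (0.18, adjusted p = 0.94). The mean Ctss signal lay among the dimmest 33.3% of probe sets.

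Oleate is monounsaturated and palmitate is saturated with a shorter chain, and both were given at 200 µM for 20 h, so their arrays were set against each other. Palmitate over oleate, the lysosomal members had a median log2 change of -0.13, with 6 of 20 above 0. The autophagy members had one of 0.01, with 7 of 13 above 0, beside 0.01 for all named genes, with 54% above 0. The other pathway lists leaned the way of the lysosomal members: the median over their 177 genes was -0.06, with 28.2% above 0. Other core autophagy genes had a median of -0.03, with 13 of 37 above 0. By siRNA, the lysosomal median was -0.07 with Plin2 siRNA and -0.16 with scrambled siRNA. The autophagy median was also below 0 under each siRNA, at -0.02 and -0.07. For all named genes the medians were -0.01 and 0.04 in that order. Hexa had the largest change, -0.33 (SE 0.07, 95% interval -0.49 to -0.17, limma adjusted p = 0.12), followed by Map1lc3a at 0.23 (interval 0.03 to 0.43, adjusted p = 0.48) and Gabarapl1 at 0.22 (interval 0.03 to 0.41, adjusted p = 0.48). Over the 34 members the 95% intervals lay between -0.49 for Hexa and 0.52 for Ctsh, so the absence of calls does not show that the fatty acids acted alike. The gap between the class medians, lysosomal minus autophagy, was -0.14 and shrank to -0.02 without the scrambled oleate array.

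A pattern noticed after the values were seen concerned the order of the treatments. Oleate gave the highest of the 3 levels under both siRNAs in 9 of 20 lysosomal members (45%) and in 4 of 13 autophagy members (30.8%), against 11.5% of all named probe sets and 14% of those above the dimmest 33.3%. The 9 lysosomal genes were Ctsa, Ctsb, Ctsd, Ctsl, Hexa, Glb1, Lipa, Lamp1 and Lamp2. Ctsa was 10.31 (oleate), 10.12 (palmitate) and 10.14 (BSA) with Plin2 siRNA, and 10.29, 10.07 and 10.13 with scrambled siRNA. The protease Ctsl was 11.55, 11.49 and 11.48 with Plin2 siRNA, and 11.64, 11.40 and 11.35 with scrambled siRNA. Ctsb was 10.93, 10.85 and 10.85 with Plin2 siRNA, and 11.09, 10.90 and 10.94 with scrambled siRNA. In these 3 genes the oleate array stood above both others under each siRNA, and none of the differences passed the limma threshold. BSA was highest in 1 of 20 lysosomal and 1 of 13 autophagy members, against 12.1%, and palmitate in 1 of 20 and 2 of 13, against 11.8%.

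**Figure D5:**
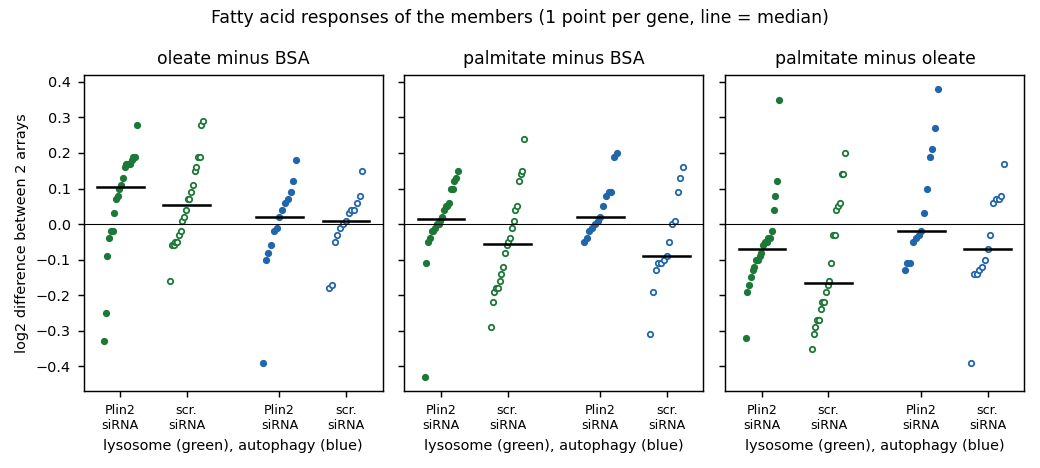
Log2 difference between 2 arrays of the same siRNA for each lysosomal (green) and autophagy (blue) member, for oleate minus BSA, palmitate minus BSA and palmitate minus oleate; filled points are Plin2 siRNA, open points scrambled siRNA, lines are medians. In palmitate minus oleate the lysosomal medians are -0.07 with Plin2 siRNA and -0.16 with scrambled siRNA, and the autophagy medians -0.02 and -0.07. In oleate minus BSA the lysosomal medians are 0.11 and 0.06, and the autophagy medians 0.02 and 0.01.

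The last comparison asked whether the response to fatty acids differed between the siRNAs. The interaction of siRNA with any fatty acid was called by limma in 0 of 34 members, against 0% of all named probe sets, and 0 members had an unadjusted p under 0.05. Estimates lay between -0.31 for Ctss and 0.21 for Atg5, each with an adjusted p of 1. The 95% intervals over the 34 members lay between -0.87 for Ctss and 0.72 for Ctsk, so the absence of calls does not show that the responses were alike.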

How the data were processed

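Total RNA from 6 cultures of C2C12 myotubes was hybridised to Affymetrix whole-transcript arrays, 1 per condition, from 100 ng of RNA with an integrity number above 8. The deposited values are log2 expression values made by RMA (background correction, normalization between arrays, summary per probe set), per the submitters' processing notes; the RMA version is not given in the sources used here, nor is a genome build. RMA compresses changes of dim probe sets. Values were used as deposited.

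GEO's platform annotation tied 21789 of 35556 probe sets to 1 symbol and 1621 to several, and did not list 12146; by Entrez ID 21698 were matched to RefSeq (GRCm38.p6), and 0 symbols changed. The fit used limma 3.58.1 (R 4.3.3) (treatment and siRNA as terms, eBayes with an intensity trend; 2 residual degrees of freedom and 9.21 from the prior), with Benjamini-Hochberg adjustment over the 21789 probe sets and a threshold of 0.05. The interaction model had 1 residual degree of freedom. Nothing in the labels says that the cultures were separate, so the p-values cover the spread between these arrays alone. In the additive fit this spread is the variation of the siRNA change between the 3 treatments. For the fatty acids it is the variation of their changes between the siRNAs. Technical spread and any real difference in response both enter it and cannot be told apart. Precision is limited by the small number of arrays.

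The members and the lists were chosen with earlier results of these data known. Named genes were all 34 members, Plin2 and, per direction and pathway list, up to 3 genes with the largest called siRNA change. The 3 members with the largest change in each fatty acid comparison were also named. Tfe3, Tfec, Cd68 and the oleate examples were named after their values were seen. Motifs were counted on both strands with Python 3.11.15 in 300-base RefSeq windows. Alternatives covered the trend, the probe sets fitted, a filter on the dimmest 33.3%, quantile normalization, centring, the mean of a gene's probe sets, the treatment term and each array left out; the same alternatives on the pathway lists were added after seeing the data.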

Additional observations from a re-analysis of the deposited data

How the results depend on the processing

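The siRNA count of 9 called members fell to 3 without the intensity trend and to 4 with all probe sets in the fit. The share of all named probe sets called fell too, from 17.1% to 11% and 7.68%. It was 8 with centred arrays and without the treatment term, and 9 with the low-signal filter, quantile normalization or the mean of a gene's probe sets. Leaving out 1 array at a time gave 4 to 10, beside 10.2% to 17.6% of all named probe sets. None of the 9 called members changed sign under any alternative run. Each had the same sign in all 3 pairs, so leaving out an array could not reverse it. Hexa was the only one called in all 10 distinct fits. Glb1 and Becn1 were each called in 9, Wipi1, Atg12, Map1lc3b and Bnip3l in 8, Gabarapl1 in 5 and Gaa in 4. Leaving out either array of a treatment pair gives in effect the same siRNA test, on the 2 other pairs, and is counted here as 1 fit. The fatty acid and interaction comparisons gave 0 called members under every alternative run. The lysosomal minus autophagy difference of median changes was 0.11 for the siRNA (0.06 to 0.12 with 1 array left out). In the single oleate and palmitate pairs the class medians of the siRNA change lay close together. The difference was 0.07 for oleate against BSA (0.05 to 0.09) and 0.00 for palmitate against BSA (-0.03 to 0.03). For palmitate against oleate it was -0.14 (-0.14 to -0.02). The causes of these shifts were not tested. With 1 array left out, the fit has 1 residual degree of freedom. The arrays of both siRNAs are paired by treatment, through the treatment term; the labels carry no replicate numbers to pair them by. Signal limits Ctsk and Ctss, which lie among the dimmest 33.3% of probe sets.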

Other observations

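Genes of muscle atrophy that share FoxO control with several autophagy genes moved in both directions with Plin2 siRNA. Of 12 measured genes on this list, 4 were called higher and 1 lower, and over the alternatives 2 to 5 were higher and 1 or 2 lower. Txnip, an inhibitor of thioredoxin, was 10.30 (oleate), 10.09 (palmitate) and 9.62 (BSA) with Plin2 siRNA, against 9.33, 8.89 and 8.84 with scrambled siRNA, a rise of 0.98 (SE 0.08, limma adjusted p = 1.2e-05). The ubiquitin ligases of muscle breakdown parted. Fbxo32 was 9.79, 9.72 and 9.64 with Plin2 siRNA, against 9.43, 9.35 and 9.17 with scrambled siRNA, and rose by 0.40 (SE 0.06, adjusted p = 0.0013). Trim63 was 8.39, 8.42 and 8.34 with Plin2 siRNA, against 9.05, 8.77 and 8.86 with scrambled siRNA, and fell by 0.51 (SE 0.08, adjusted p = 0.00099). Foxo1 itself rose by 0.39 (SE 0.08, adjusted p = 0.006), with no overlap between the siRNAs.

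Among the macrophage markers only Cd68, which encodes a lysosomal membrane glycoprotein, was called: it was 4.85 (oleate), 4.68 (palmitate) and 4.63 (BSA) with Plin2 siRNA, against 5.53, 5.14 and 5.08 with scrambled siRNA, a change of -0.53 (SE 0.12, limma adjusted p = 0.0086). The lowest Cd68 level, 4.63, lay close to 4.49, the limit of the dimmest 33.3% of probe sets. Of 8 osteoclast markers 0 were called, and of 8 fibroblast markers 1 was called higher and 1 lower. The shares called were 8.33% of macrophage, 0% of osteoclast and 25% of fibroblast markers. Beside these stand 17.1% of all named probe sets and 24.7% of those above the dimmest 33.3%.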
